A study of Mus musculus with 6 samples.

Results

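The genes described here are the metalloproteinases and their inhibitors in the cornea of mice with experimental dry eye: the matrix metalloproteinases (Mmp), the tissue inhibitors of metalloproteinases (Timp), the ADAM proteases (Adam) and the secreted ADAMTS proteases with the ADAMTS-like proteins (Adamts, Adamtsl). Members were matched by gene symbol, and 73 of the 17794 genes in the deposited table matched: 22 Mmp, 4 Timp, 23 Adam, 19 Adamts and 5 Adamtsl genes. These families and the gene lists used below were chosen with earlier results of these data known. All corneas came from mice in which dry eye had been induced with benzalkonium chloride, a preservative and detergent that damages the ocular surface. Afterwards the mice received luteolin, a plant flavone, or vehicle for 10 days, and the whole cornea was taken for RNA sequencing, giving 3 luteolin libraries and 3 vehicle libraries. The treatment text of the luteolin group also holds the word control, and its libraries were taken as luteolin treated from their titles. The labels name no strain, sex or age and no dose, and they do not say whether the libraries of a group came from separate animals, so the p-values below measure the spread between libraries, which may be technical. Corneas without benzalkonium chloride were not analysed here, so every difference is between luteolin and vehicle in damaged corneas.

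Metalloproteinases are zinc-dependent enzymes made as inactive precursors. The secreted MMPs cut collagen, laminin and other matrix proteins, the membrane-type MMPs act at the cell surface, and TIMPs bind and block the active site. ADAMs release growth factors and cytokine receptors from the cell membrane, a process called shedding, while ADAMTS enzymes trim proteoglycans and procollagens outside the cell. In the cornea these enzymes are known for their part in wound healing, in the loss of stroma during ulceration and, for gelatinase B in tears, as a sign of ocular surface disease.

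Most of the members that could be tested were lower with luteolin. Of the 73 members, 50 passed the filter on low counts and were tested, 32 of them were lower, 6 were higher and 12 did not pass the threshold, which is a Benjamini-Hochberg adjusted p under 0.05 in the quasi-likelihood test of edgeR over all 13838 genes tested. Over all tested genes, 30.4% were lower and 28.5% were higher by the same rule. The median log2 fold change, luteolin minus vehicle, was -1.50 over the tested members and -0.02 over all tested genes. Of the 50 tested members, 21 were lower by over 2 on the log2 scale and 13 changed by under 0.5. Of all 13838 genes tested, 969 were lower by over 2 and 8015 changed by under 0.5. In 34 of the tested members every luteolin library was below every vehicle library, and in 7 every luteolin library was above, where 33.7% and 33.8% of all tested genes did so. These counts and medians describe the members that passed the filter and support nothing beyond that. Of the 50, 18 (36%) reached the minimum of the filter (0.619 CPM, counts scaled to a common library size) in all 3 vehicle libraries but in fewer than 3 luteolin libraries, Timp1, Mmp9, Mmp12 and Mmp13 among them, against 848 genes (6.13%) of all those tested. Such genes were tested because they were high with vehicle, so the members and all tested genes are not alike in this respect. The other 32 members reached the minimum in all 6 libraries. In whole tissue, fewer cells of a type and less RNA per cell cannot be told apart, here and in every result that follows.

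**Figure D1:**
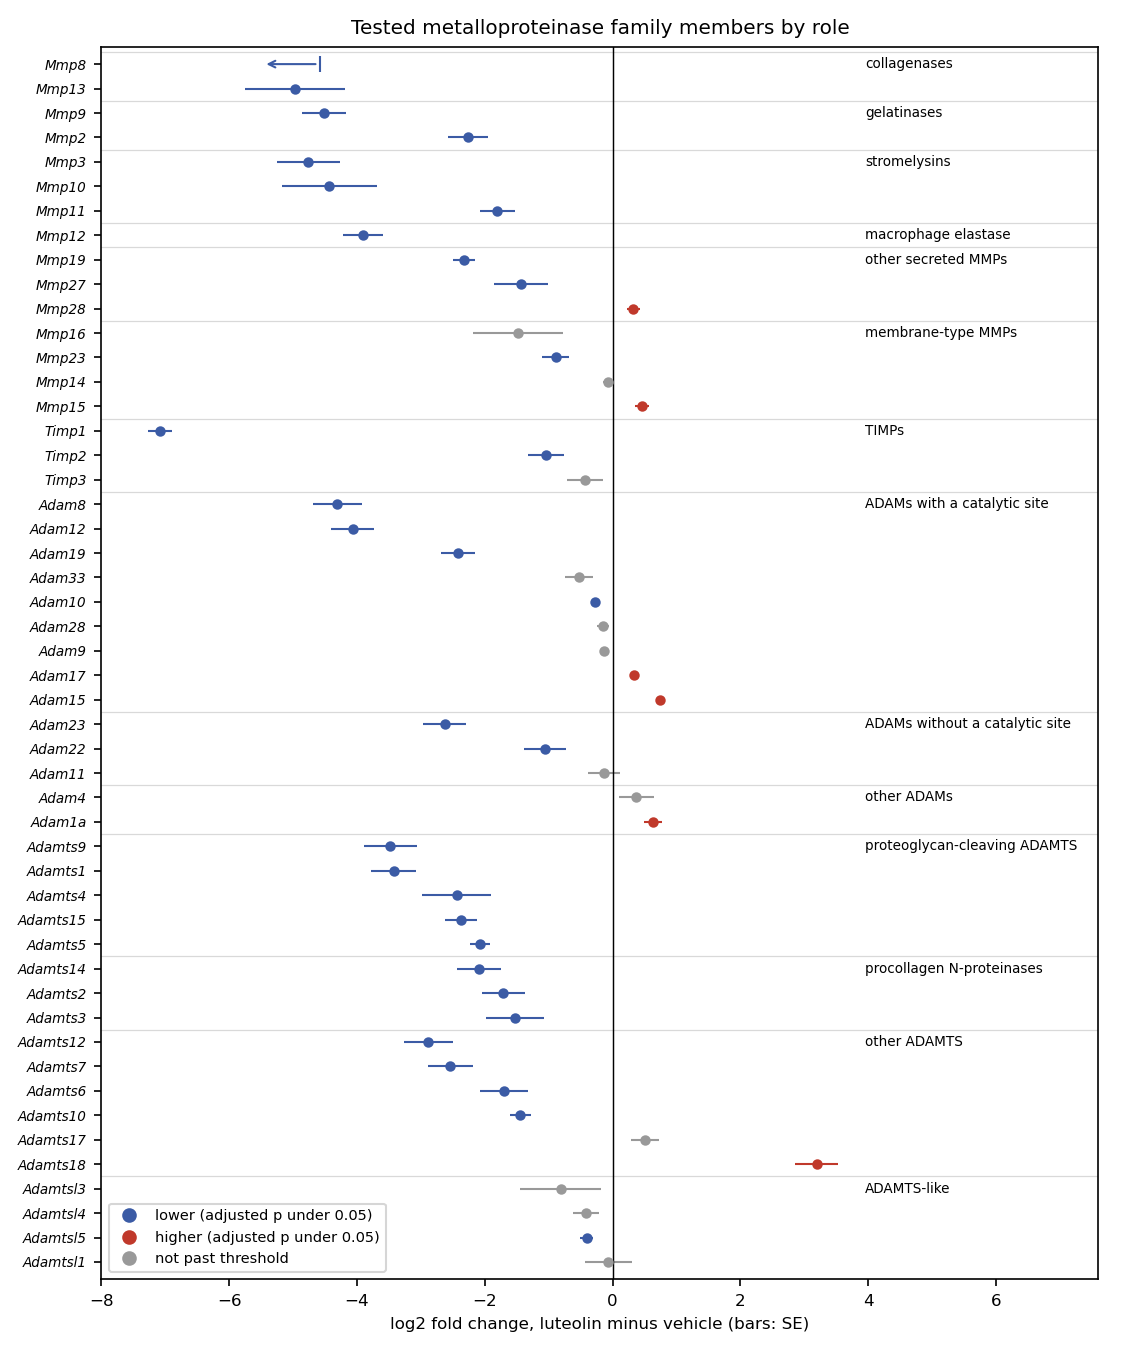
Log2 fold change (luteolin minus vehicle, horizontal axis) with its SE for the 50 tested members, grouped by role down the page; blue points were lower and red points higher at an adjusted p under 0.05, and grey points did not pass. Mmp8, with 0 luteolin counts, is drawn as an arrow from its bound, and Timp1 at -7.09 and Adamts18 at 3.19 are the ends of the fitted range.

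By family, 11 of 15 tested MMPs, 2 of 3 tested TIMPs, 6 of 14 tested ADAMs, 12 of 14 tested ADAMTS genes and 1 of 4 tested ADAMTS-like genes were lower. Over all tested genes 30.4% were lower. Many of these lower members passed the filter through the vehicle libraries alone. They were Mmp8, Mmp9, Mmp10, Mmp12, Mmp13, Mmp27, Timp1, Adam8, Adam12, Adam23, Adamts3, Adamts4, Adamts6, Adamts7, Adamts9, Adamts12 and Adamts14. The family counts and medians therefore describe only the members that passed. Medians of the log2 fold change were -2.27 for MMPs, -1.05 for TIMPs, -0.21 for ADAMs, -2.09 for ADAMTS genes and -0.41 for ADAMTS-like genes. The 6 higher members were Adam15, Adam17, Adam1a, Mmp15, Mmp28 and Adamts18, and Adamts18 was the 1 member higher by over 1 on the log2 scale, as were 671 genes (4.85%) of all those tested.

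**Figure D2:**
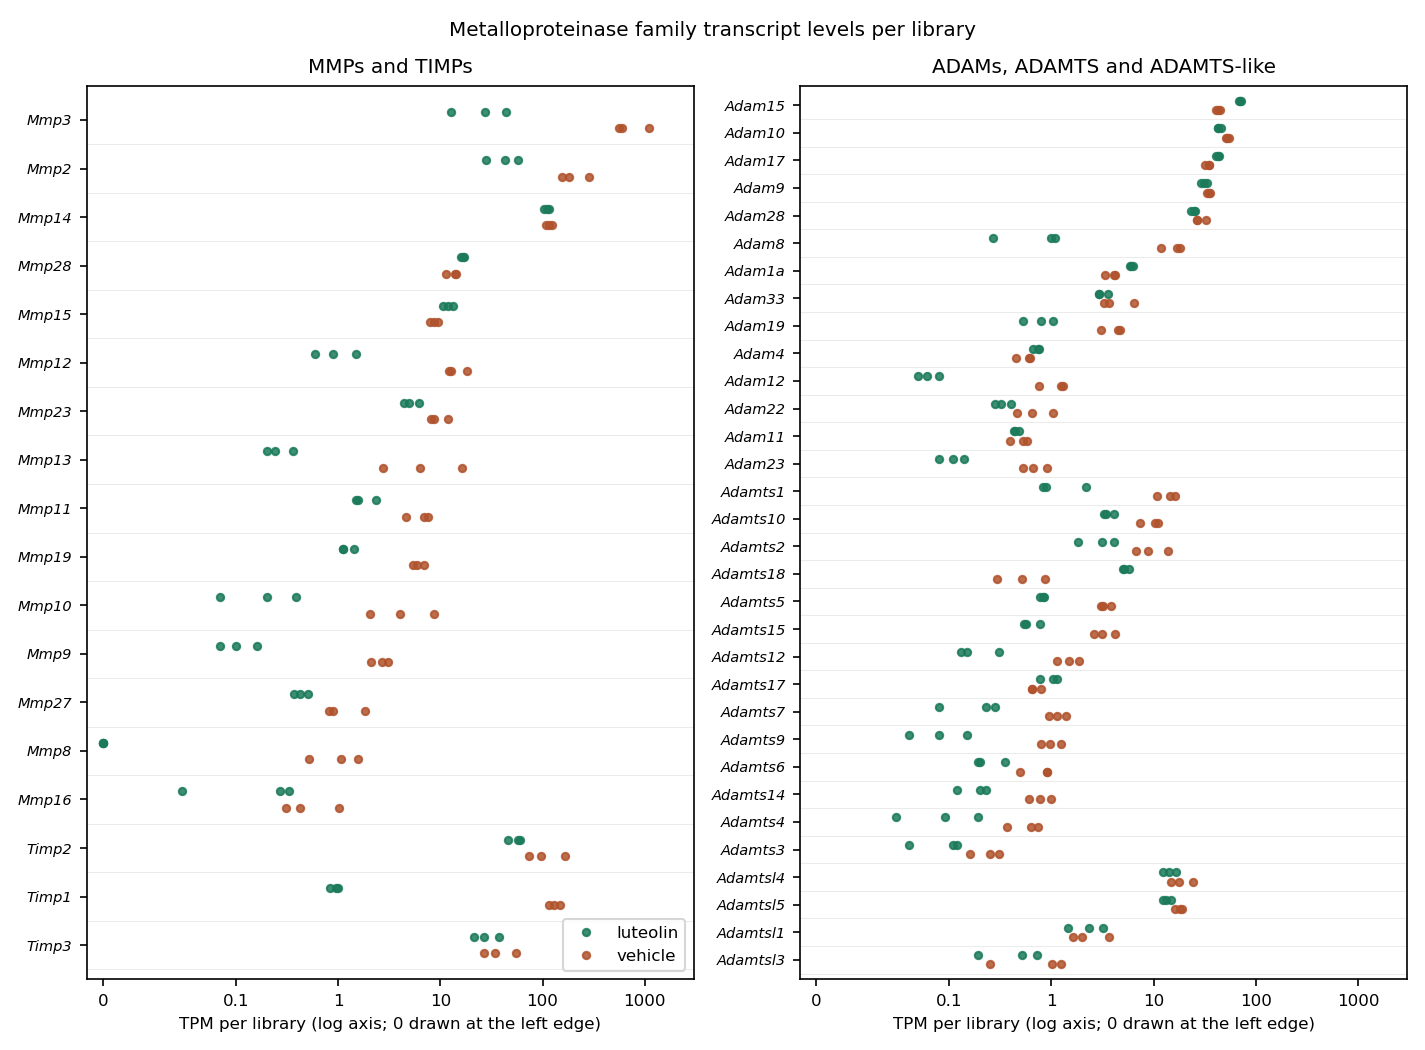
Level of the tested members in each library, in TPM (a level corrected for gene length) on a log axis with 0 drawn at the left edge; green points are luteolin and brown points vehicle libraries. Among the abundant MMPs the groups separated for Mmp3 and Mmp2 and overlapped for Mmp14. For the abundant ADAMs the groups lay close together on this axis, though some of them, Adam15, Adam17 and Adam10 included, did not overlap.

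The interstitial collagenases, the stromelysins 1 and 2 and the macrophage elastase share a gene cluster on chromosome 9, which holds 10 of the 22 Mmp genes in the table, in the order Mmp13, Mmp12, Mmp1b, Mmp3, Mmp1a, Mmp10, Mmp8, Mmp27, Mmp20 and Mmp7, with 0 protein-coding genes of other families between them in RefSeq. The 6 cluster genes that were tested were lower with luteolin, but 5 of them, all but Mmp3, passed the filter through the vehicle libraries alone, and a gene low with vehicle could not enter that way. In the untested Mmp1a and Mmp1b the luteolin libraries were also below the vehicle libraries. Mmp20 overlapped between groups, and Mmp7 (matrilysin) had 5 luteolin counts and 1 vehicle count in all. Promoters of this cluster are known for sites of the AP-1 factors (Fos and Jun). The letters TGANTCA, which read the same on both strands and overlap no other motif searched, stood in the RefSeq window (250 bases before to 50 after a gene start) of 8 of the 10 cluster genes (80%), in each case within 100 bases before the start, against 8.97% of 27025 genes with a window and 3.18% within those 100 bases. Of the 38 other members with a window 3 held it (7.89%), and 0 within 100 bases before the start. Of the cluster genes whose levels differed, Mmp1a, with a match, and Mmp27, without one, are not shown. Below are the 100 bases before the start of the others that held a match, of Mmp8, which held no match, and of Timp1, the member with the lowest fitted log2 fold change of those detected in every library. They are from RefSeq on build GRCm38.p6, written 5′ to 3′ on the gene's strand with the match in capitals.
Mmp3, chr9:7445722-7445821, plus strand: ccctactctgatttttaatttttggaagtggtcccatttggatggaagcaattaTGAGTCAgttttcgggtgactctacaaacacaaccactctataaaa
Mmp10, chr9:7502242-7502341, plus strand: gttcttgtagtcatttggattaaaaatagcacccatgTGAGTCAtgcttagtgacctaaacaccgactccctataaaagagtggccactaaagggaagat
Mmp12, chr9:7347274-7347373, plus strand: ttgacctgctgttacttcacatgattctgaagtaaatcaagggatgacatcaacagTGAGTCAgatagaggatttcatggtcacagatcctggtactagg
Mmp13, chr9:7272414-7272513, plus strand: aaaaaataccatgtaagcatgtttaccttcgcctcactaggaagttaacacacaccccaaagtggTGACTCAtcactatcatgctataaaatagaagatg
Mmp1b, chr9:7388027-7388126, minus strand: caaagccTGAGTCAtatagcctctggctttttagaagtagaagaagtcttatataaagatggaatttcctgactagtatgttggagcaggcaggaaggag
Mmp8, chr9:7558329-7558428, plus strand: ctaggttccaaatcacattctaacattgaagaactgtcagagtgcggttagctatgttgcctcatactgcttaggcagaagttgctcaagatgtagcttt
Timp1, chrX:20870066-20870165, plus strand: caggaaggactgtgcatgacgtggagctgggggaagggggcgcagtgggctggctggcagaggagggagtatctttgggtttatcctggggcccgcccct
The match began 35 bases before the start in Mmp13, 44 in Mmp12 (at the second of its RefSeq starts), 46 in Mmp3, 63 in Mmp10 and 93 in Mmp1b. A match is a run of letters and no measurement of binding. Mmp8 and Mmp27 held no match and were lower, and Mmp20 and Mmp7 held it and had at most 3 counts in any library.

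**Figure D3:**
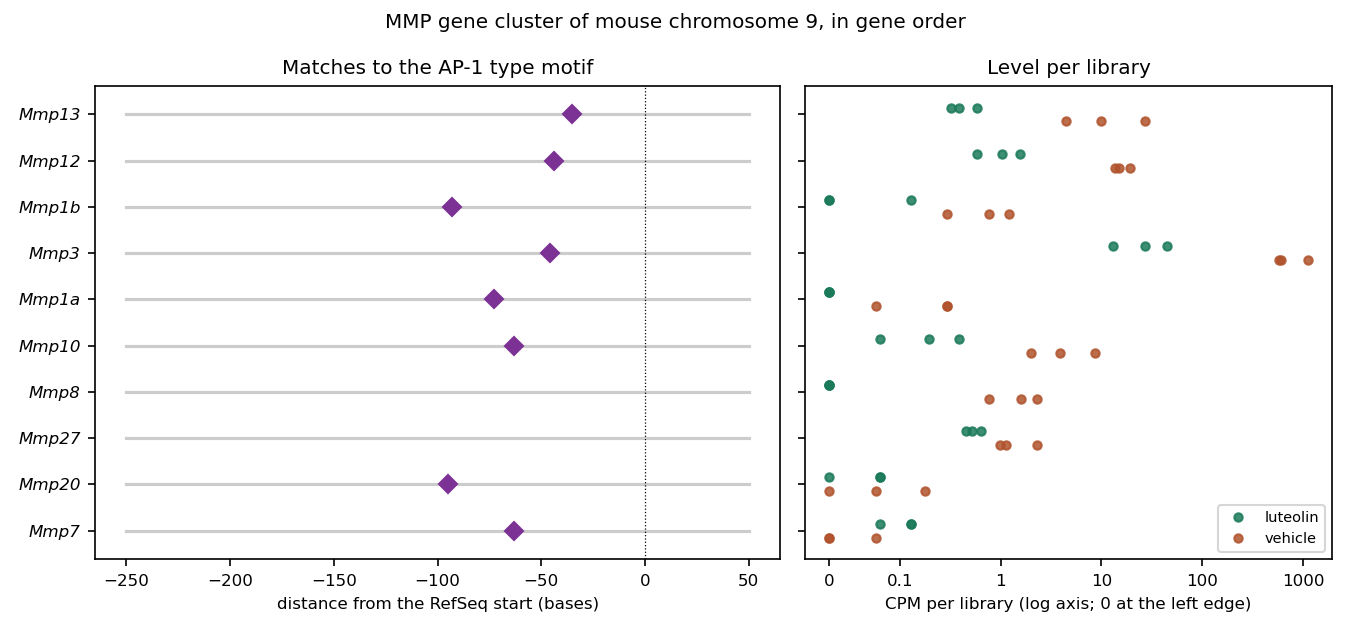
Left, position of the motif match (diamond) relative to the RefSeq gene start, in bases, within the window searched (grey line) for the 10 chromosome 9 MMP genes in gene order. Right, level of each gene in every library, in CPM on a log axis with 0 at the left edge, green for luteolin and brown for vehicle; Mmp3 stands far above the other cluster genes in both groups on this scale, which is not corrected for length.

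Among the collagenases, which make the first cut in fibrillar collagen, Mmp13 (collagenase 3, gene ID 17386) had 0.387, 0.325 and 0.579 CPM in luteolin libraries 1 to 3, against 9.99, 4.45 and 26.8 CPM in vehicle libraries 1 to 3. The groups did not overlap, and vehicle library 3 was the highest; the log2 fold change was -4.97 (SE 0.78, edgeR adjusted p = 0.00149), and -4.07 without that library. Mmp8, the neutrophil collagenase (gene ID 17394), had 0 counts in every luteolin library and 39, 13 and 27 counts in the vehicle libraries. Set against 3 counts over the luteolin group it was at least 24.0-fold lower (edgeR adjusted p = 0.00278), and with any single library left out the bound ran between 16.0-fold and 30.1-fold. The mouse counterparts of human interstitial collagenase, Mmp1a and Mmp1b, were too low for the test. Being close copies of each other, their reads may be shared. Their estimated counts, however, held no decimals, which appear when reads are divided among similar genes. Mmp1a had 0 luteolin counts and 1, 5 and 5 vehicle counts, and was at least 3.34-fold lower, a bound that ran between 2.22-fold and 4.57-fold with any single library left out and was lowest without a luteolin library. Mmp1b had 0, 2 and 0 counts with luteolin and 21, 5 and 13 with vehicle, a vehicle to luteolin ratio of 17.8 with an exact 95% interval of 4.60 to 152 that covers counting error only.

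Stromelysin 1 (Mmp3, gene ID 17392), which cuts proteoglycans and laminin and activates other MMP precursors, was the most abundant MMP per length in vehicle corneas. Its level was 27.3, 44.5 and 13 CPM in the luteolin libraries, against 603, 1122 and 577 CPM in the vehicle libraries. Every luteolin library lay far below every vehicle library, and vehicle library 2 was the highest of all. The log2 fold change was -4.76 (SE 0.49, edgeR adjusted p = 0.000255), which is 27.2-fold lower. Stromelysin 2 (Mmp10), an enzyme of migrating epithelium in wounds, had 0.0645, 0.195 and 0.386 CPM with luteolin, against 3.85, 1.99 and 8.58 CPM with vehicle. Its groups did not overlap either, with a log2 fold change of -4.43 (SE 0.74) that became -5.13 without luteolin library 3 and -3.74 without vehicle library 3. Mmp11, stromelysin 3, a stromal enzyme activated inside the cell by furin, had 2.0, 3.18 and 2.06 CPM in luteolin corneas, against 9.11, 10.01 and 6.2 CPM in vehicle corneas, a smaller difference (-1.80, SE 0.27). The macrophage elastase Mmp12 had 0.58, 1.56 and 1.03 CPM with luteolin, against 19.4, 14.8 and 13.8 CPM with vehicle (-3.91, SE 0.31), and the vehicle libraries lay close together. The edgeR adjusted p-values of Mmp10, Mmp11 and Mmp12 were 0.00196, 0.00119 and 0.000114.

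The gelatinases, which cut denatured collagen and basement membrane, were both lower but at very different levels. Gelatinase A (Mmp2, gene ID 17390), a product of stromal cells, had 80.8, 109.6 and 52.9 CPM in luteolin libraries, against 337, 536 and 297 CPM in vehicle libraries, lower by 2.27 on the log2 scale (SE 0.31, edgeR adjusted p = 0.000826). Gelatinase B (Mmp9), known from neutrophils and from wounded corneal epithelium, had 0.193, 0.13 and 0.322 CPM with luteolin, against 5.9, 5.21 and 4.17 CPM with vehicle, 22.9-fold lower (-4.52, SE 0.34, edgeR adjusted p = 9.65e-05). In both genes the groups stood well apart. Pro-Mmp2 is known to be activated at the cell surface by the membrane-type Mmp14 in a complex with Timp2. Mmp14 (MT1-MMP, gene ID 17387) had 243, 278 and 266 CPM in luteolin corneas, against 272, 259 and 299 CPM in vehicle corneas, overlapping values that differed by -0.08 on the log2 scale (SE 0.079, edgeR adjusted p = 0.427). With log2(FPKM + 0.1) values it was -0.20 with a limma adjusted p of 0.0496, where adjusted p over its alternatives ran from 0.0496 to 0.736. In each library the ratio of Mmp14 to Mmp2 in TPM was 2.38, 2.01 and 3.99 with luteolin, against 0.637, 0.382 and 0.798 with vehicle. The ratio of Timp2 to Mmp2 in TPM was 1.33, 1.04 and 1.65 with luteolin, against 0.537, 0.587 and 0.474 with vehicle. Mmp2 was thus the lower of the pair in every luteolin library and the higher in every vehicle library, in both ratios; no test was run on them.

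Among the other secreted MMPs the directions were mixed. Mmp19, which cuts basement membrane proteins, had 2.32, 2.92 and 2.25 CPM with luteolin, against 14.1, 12.3 and 11.4 CPM with vehicle (-2.33, SE 0.17, edgeR adjusted p = 9.08e-05). Mmp27, at the far side of Mmp8 in the chromosome 9 cluster, had 0.451, 0.52 and 0.643 CPM with luteolin, against 0.993, 2.28 and 1.13 CPM with vehicle, and at -1.44 (SE 0.43, edgeR adjusted p = 0.0222) it lost its call without luteolin library 1, luteolin library 2 or vehicle library 2, with adjusted p over the alternatives from 0.0136 to 0.0726. Epilysin (Mmp28), known from keratinocytes of healing skin, had 36.7, 34.6 and 36 CPM in luteolin corneas, against 24.1, 30.3 and 31.4 CPM in vehicle corneas. All luteolin libraries were above all vehicle libraries, but by little: the log2 fold change was 0.32 (SE 0.11, edgeR adjusted p = 0.0327), and the call was lost in 8 of 16 alternatives, including leaving out any luteolin library or vehicle library 1, with adjusted p over the alternatives from 0.0235 to 0.122. The estimated counts of Mmp19 and Mmp28 held decimals in each of the 6 libraries, which happens when reads are divided among similar genes, and their values are less certain.

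Of the 4 tested membrane-type MMPs, Mmp14 included, 1 was lower and 1 higher. Mmp15 (MT2-MMP) had 28.6, 36.3 and 32.9 CPM with luteolin, against 23.5, 25.8 and 21.9 CPM with vehicle, and was higher by 0.46 (SE 0.11, edgeR adjusted p = 0.00885) with no overlap. Mmp23, a membrane-anchored member with a divergent C-terminus, had 3.74, 4.74 and 3.86 CPM with luteolin, against 6.19, 9.6 and 7.09 CPM with vehicle, and was lower by 0.89 on the log2 scale (SE 0.21, edgeR adjusted p = 0.00945). Mmp16 (MT3-MMP) had 0.516, 0.65 and 0.0643 CPM with luteolin, against 0.642, 1.99 and 0.834 CPM with vehicle, values that overlapped and did not pass. Of the members anchored by a lipid, Mmp25 (leukolysin, a neutrophil enzyme) had 0 counts in the luteolin libraries and 13, 14 and 10 in the vehicle libraries, and was at least 11.2-fold lower, or at least 7.47-fold to 12.2-fold with any single library left out, lowest without a luteolin library. Mmp17 had 2, 2 and 1 counts with luteolin and 9, 14 and 11 with vehicle. Neither of them passed the filter; with no filter both were lower, with edgeR adjusted p of 0.00188 for Mmp25 and 0.00465 for Mmp17.

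Timp1, a secreted inhibitor of most soluble MMPs that is induced in inflamed and wounded tissue, showed the largest fitted fall among the members with reads in every library. Timp1 (gene ID 21857) had 0.322, 0.39 and 0.386 CPM in luteolin libraries, against 44, 50.05 and 58.5 CPM in vehicle libraries. That is 17 counts over the luteolin group and 2591 over the vehicle group, a 136-fold difference (-7.09, SE 0.19, edgeR adjusted p = 1.52e-05), with libraries of a group close to each other. Timp2 had 128, 137 and 104 CPM with luteolin, against 217, 377 and 169 CPM with vehicle, where vehicle library 2 was the highest. Its groups did not overlap, but its fall by 1.05 on the log2 scale (SE 0.28, edgeR adjusted p = 0.0147) lost its call without luteolin library 3, where the adjusted p was 0.0520, and over its alternatives adjusted p ran from 0.00105 to 0.0520. Timp3, which binds to the matrix and also blocks ADAM17 and several ADAMTS enzymes, had 111, 80.5 and 63.9 CPM with luteolin, against 101, 162 and 81.2 CPM with vehicle. Those values overlapped, with luteolin library 1 above vehicle libraries 1 and 3, and the change of -0.44 (SE 0.28) did not pass (edgeR adjusted p = 0.219). Timp4 was near the limit of detection, with 1, 0 and 1 counts in luteolin libraries and 6, 5 and 1 in vehicle libraries. The vehicle to luteolin ratio was 5.46, with an exact 95% interval of 1.22 to 50.3 that covers counting error only. Its groups overlapped, and with no filter it did not pass the threshold (edgeR adjusted p = 0.0993).

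Added up per length, MMP and TIMP transcripts were both scarcer with luteolin, and their makeup differed. The summed TPM of all MMPs was 220.2 ± 35.8 with luteolin and 1158 ± 364 with vehicle (SD, n = 3 each). Mmp3 alone made 12.1% of the MMP total in luteolin corneas and 64.2% in vehicle corneas, and without it the totals were 192 and 401 TPM. Mmp14 made 50.7% of the total with luteolin and 10.7% with vehicle, and Mmp2 19.2% with luteolin and 17.8% with vehicle. The TIMP total was 84.0 ± 14.2 TPM with luteolin and 282 ± 59.9 TPM with vehicle. Timp1 supplied 1.13% of it in luteolin corneas and 47.8% in vehicle corneas, Timp2 65.2% with luteolin and 38.8% with vehicle, and Timp3 33.6% with luteolin and 13.4% with vehicle. The ratio of the TIMP total to the MMP total was 0.455, 0.339 and 0.359 in luteolin libraries, against 0.253, 0.223 and 0.269 in vehicle libraries. The groups did not overlap in this ratio, but its direction rests on Mmp3. With Mmp3 left out of the MMP total, a calculation chosen after seeing the data, the ratio was 0.523, 0.407 and 0.384 with luteolin, against 0.661, 0.751 and 0.685 with vehicle, which is lower with luteolin and again without overlap. Both ratios count transcripts and not enzyme activity, and no test was run on them.

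**Figure D4:**
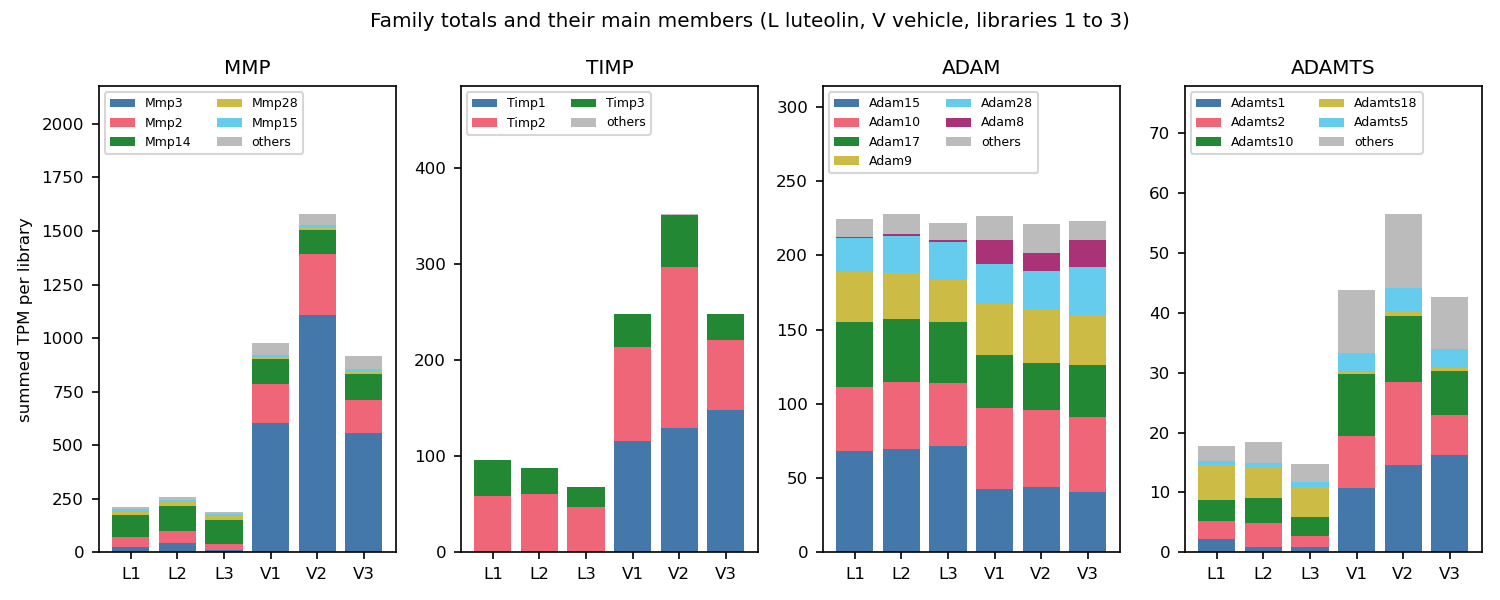
Summed TPM of the MMP, TIMP, ADAM and ADAMTS genes in each library (L luteolin, V vehicle, libraries 1 to 3), with the most abundant members of each family coloured and the rest in grey. The MMP, TIMP and ADAMTS bars are shorter in all luteolin libraries, and the ADAM bars are level between 221 and 227 TPM.

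The ADAM total was 224 ± 2.90 TPM with luteolin and 224 ± 2.73 TPM with vehicle. With TPM rescaled by the TMM factors, an alternative chosen after seeing the data, it was 234 and 215 TPM, so no direction is given for the total. Beneath the level total the members moved in both directions. Adam15, an integrin-binding ADAM of epithelium and vessels, was the most abundant ADAM per length with luteolin, and it had 123, 127 and 132 CPM in luteolin libraries, against 75.9, 78.4 and 74.4 CPM in vehicle libraries. Its groups did not overlap, and it was higher by 0.74 on the log2 scale (SE 0.054, edgeR adjusted p = 8.73e-05), taking 31.2% of the ADAM total in TPM with luteolin and 19.0% with vehicle. Adam17 (TACE), the main sheddase of TNF and of several EGF-family ligands, had 120.4, 117 and 112 CPM in luteolin libraries, against 94.8, 87.2 and 95.8 CPM in vehicle libraries. Adam10, which sheds Notch, betacellulin and cadherins, had 125, 133 and 125 CPM in luteolin libraries, against 159, 152 and 152 CPM in vehicle libraries. These principal sheddases thus moved in opposite directions by small amounts, Adam17 higher by 0.33 (SE 0.061, edgeR adjusted p = 0.00306) and Adam10 lower by 0.27 (SE 0.055, edgeR adjusted p = 0.00438), each without overlap.

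The remaining abundant ADAMs did not pass the threshold. Adam9 had 84.5, 79.2 and 73.9 CPM with luteolin, against 86.4, 89.1 and 85.7 CPM with vehicle (-0.14, SE 0.064, edgeR adjusted p = 0.103). Adam28, a lymphocyte and epithelial ADAM, had 48.4, 53.5 and 54 CPM with luteolin, against 53.6, 54 and 65.7 CPM with vehicle (-0.15, SE 0.096, edgeR adjusted p = 0.207). Every luteolin library of Adam9 was narrowly below every vehicle library, and Adam28 overlapped. Both were called lower when scaled by library size alone or in FPKM, scalings that move the median of all genes to between -0.12 and -0.14, and Adam9 also with upper quartile factors (median -0.11), with adjusted p from 0.0126 to 0.291 for Adam9 and from 0.0260 to 0.485 for Adam28 over the alternatives. Of the other ADAMs with a catalytic site Adam8, Adam12 and Adam19 were lower. Adam8, a leukocyte ADAM, had 0.516, 2.08 and 1.93 CPM with luteolin, against 31.8, 22.8 and 35.5 CPM with vehicle (-4.31, SE 0.38, edgeR adjusted p = 0.000149). Adam12 (meltrin alpha), an ADAM of activated fibroblasts and regenerating muscle, had 0.258, 0.39 and 0.322 CPM with luteolin, against 6.54, 6.2 and 3.87 CPM with vehicle (-4.07, SE 0.33, edgeR adjusted p = 0.000119). In both the highest luteolin library lay far below the lowest vehicle library. Adam19 (meltrin beta) was lower by 2.42 on the log2 scale, and Adam33 did not pass at -0.53, with a call only without vehicle library 3, with upper quartile factors or with library sizes alone.

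Of the ADAMs that lack a catalytic site and bind partners instead, Adam23 had 0.322, 0.455 and 0.579 CPM with luteolin, against 3.62, 2.69 and 2.2 CPM with vehicle (-2.63, SE 0.34, edgeR adjusted p = 0.00063). Adam22 had 2.39, 1.95 and 1.67 CPM with luteolin, against 3.8, 5.97 and 2.74 CPM with vehicle. It was lower by 1.06 (SE 0.33, edgeR adjusted p = 0.026), a call lost without luteolin library 2 or 3 or vehicle library 1 or 2, with adjusted p over the alternatives from 0.00894 to 0.0837. Adam11, known from the nervous system like the other two, had 1.42, 1.36 and 1.54 CPM with luteolin, against 1.64, 1.81 and 1.31 CPM with vehicle, and overlapped. Adam1a and Adam4 are known from sperm. Adam1a had 11.1, 11.8 and 11.5 CPM with luteolin, against 6.25, 8.02 and 7.98 CPM with vehicle, and was higher by 0.63 (SE 0.14, edgeR adjusted p = 0.00691); its estimated counts held decimals in all 6 libraries, as for Mmp19 and Mmp28, and its value is less certain. Adam4 had 1.16, 1.04 and 1.16 CPM with luteolin, against 0.934, 0.702 and 0.953 CPM with vehicle, and did not pass (edgeR adjusted p = 0.278).

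Genes known to control the sheddases were measured from a list of activators and membrane partners. Of 13 tested 7 were higher and 2 lower (median log2 fold change 0.25), where 28.5% and 30.4% of all tested genes were. Tspan15, a tetraspanin that carries Adam10 to the cell surface and steers its substrate choice, had 43.3, 44.6 and 41.4 CPM with luteolin, against 13.3, 19 and 14.1 CPM with vehicle (1.48, SE 0.14, edgeR adjusted p = 0.000169). The other tetraspanins of its group that passed were also higher: Tspan33 (1.60), Tspan5 (0.77), Tspan17 (0.44) and Tspan14 (0.25). So were the inactive rhomboids that escort Adam17, Rhbdf1 (0.46) and Rhbdf2 (0.31). Furin, the protease that cuts the prodomain from ADAMs and from Mmp11 and Mmp14, had 55.8, 54.6 and 59.3 CPM with luteolin, against 81.5, 87.6 and 101 CPM with vehicle, and was lower (-0.67, SE 0.088, edgeR adjusted p = 0.00067), as was the related Pcsk5 (-1.58). Of 12 tested ligands and receptors that ADAM10 and ADAM17 shed, 5 were lower and 3 higher, where 30.4% and 28.5% of all tested genes were, with 5 higher without vehicle library 3 and 2 without luteolin library 2. Betacellulin (Btc), an EGF-receptor ligand released by Adam10, had 25.3, 25.7 and 24.9 CPM with luteolin, against 9.75, 9.37 and 11.1 CPM with vehicle (1.33, SE 0.096, edgeR adjusted p = 8.44e-05). Tnfrsf1b, the TNF receptor of leukocytes that Adam17 sheds, had 0.838, 1.82 and 1.35 CPM with luteolin, against 14.5, 20.6 and 16.7 CPM with vehicle (-3.69, SE 0.27, edgeR adjusted p = 9.07e-05). The EGF-family ligands split: Egf was higher like Btc, while Tgfa, Areg and Epgn were lower and Hbegf and Ereg did not pass.

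The ADAMTS enzymes that cut versican and aggrecan, large proteoglycans of provisional and cartilage matrix, were lower in all 5 tested genes (median log2 fold change -2.44), where 30.4% of all tested genes were lower. Of the 5, Adamts4 and Adamts9 passed the filter through the vehicle libraries alone, so the count and median describe only what passed. Adamts1 (gene ID 11504) had 6.7, 2.6 and 2.77 CPM with luteolin, against 33.1, 45.3 and 51.7 CPM with vehicle. Luteolin library 1 was the highest of its group, and the value of -3.43 on the log2 scale (SE 0.35, edgeR adjusted p = 0.000251) was -4.02 without it. Adamts5, the chief aggrecan-cutting enzyme of mouse cartilage, had 3.09, 3.05 and 3.41 CPM with luteolin, against 12.3, 15.6 and 12.5 CPM with vehicle (-2.08, SE 0.16, edgeR adjusted p = 9.59e-05). Adamts15 had 1.74, 1.82 and 2.44 CPM with luteolin, against 9.69, 13.3 and 8.28 CPM with vehicle (-2.38, SE 0.25, edgeR adjusted p = 0.000257). None of these groups overlapped. Adamts9 (-3.48) and Adamts4 (-2.44, and -3.18 without luteolin library 2) were lower too, and Adamts8, with 2, 0 and 3 luteolin counts and 11, 14 and 10 vehicle counts, was not tested.

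All 3 procollagen N-proteinases, which remove the N-terminal propeptide so that fibrils can form, were lower, where 30.4% of all tested genes were. Of the 3, Adamts14 and Adamts3 passed the filter through the vehicle libraries alone, so the count describes only what passed. Adamts2 (gene ID 216725), the main one of the 3, had 14.5, 19.5 and 8.69 CPM with luteolin, against 40.9, 66 and 32.9 CPM with vehicle (-1.71, SE 0.34, edgeR adjusted p = 0.00414). Adamts14 had 0.387, 0.65 and 0.772 CPM with luteolin, against 2.51, 3.28 and 2.03 CPM with vehicle (-2.10, SE 0.34, edgeR adjusted p = 0.00176). Adamts3, which also takes part in maturing the lymphatic growth factor VEGF-C, had 0.58, 0.455 and 0.193 CPM with luteolin, against 1.52, 1.23 and 0.834 CPM with vehicle. Its call (-1.53, SE 0.45, edgeR adjusted p = 0.0212) was lost without luteolin library 2 or 3 or vehicle library 1, with adjusted p over the alternatives from 0.0138 to 0.118. Bmp1, the astacin protease that trims the other end of procollagen, was lower as well, with 37.8, 40.5 and 33.7 CPM in luteolin corneas, against 70.7, 75.4 and 69.5 CPM in vehicle corneas (-0.94, SE 0.081, edgeR adjusted p = 0.000136). It belongs to a list of related metalloproteinases outside the families, of which 4 of 5 tested were lower, against 30.4% of all tested genes. Pappa of that list, a protease of IGF-binding proteins, had 0, 0.065 and 0.129 CPM with luteolin, against 1.46, 1.05 and 1.13 CPM with vehicle. Its value of -4.08 (edgeR adjusted p = 0.00108) rests on 3 luteolin counts and 62 vehicle counts.

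Adamts18 (gene ID 208936) was the 1 ADAMTS gene that was higher with luteolin. In human, mutations of this gene are known from an eye syndrome with small corneas. It had 19.3, 17 and 17.1 CPM in luteolin libraries, against 0.993, 3.1 and 1.73 CPM in vehicle libraries. All luteolin libraries lay far above every vehicle library, and the gene was 9.14-fold higher (3.19, SE 0.34, edgeR adjusted p = 0.000286). Per length it supplied 31.1% of the ADAMTS total with luteolin and 1.14% with vehicle, while Adamts1 supplied 7.57% with luteolin and 29.5% with vehicle. The ADAMTS total itself was 16.97 ± 2.02 TPM with luteolin and 47.6 ± 7.66 TPM with vehicle. Adamts10, which acts on fibrillin microfibrils, had 8.06, 9.68 and 7.59 CPM with luteolin, against 24.5, 26 and 18.5 CPM with vehicle (-1.44, SE 0.16, edgeR adjusted p = 0.000354). Adamts12 had 0.645, 1.56 and 0.579 CPM with luteolin, against 8.35, 6.97 and 5.36 CPM with vehicle (-2.88, SE 0.39, edgeR adjusted p = 0.000737), and -3.49 without luteolin library 2. With it fell Adamts7 (-2.54), the other member known to cut the matrix protein COMP, and Adamts6 (-1.70), whereas Adamts17 at 0.51 did not pass.

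ADAMTS-like proteins lack the protease domain and bind fibrillin microfibrils. Adamtsl5 had 22.8, 24.5 and 27.7 CPM with luteolin, against 29.8, 35.4 and 34.1 CPM with vehicle, and was lower by 0.41 (SE 0.10, edgeR adjusted p = 0.0118). Adamtsl4, known in human from displaced lenses, had 30.4, 34.7 and 41.2 CPM with luteolin, against 36, 43.9 and 61.5 CPM with vehicle. It overlapped and did not pass (-0.41, SE 0.20, edgeR adjusted p = 0.114), though in 4 of 16 alternatives, leaving out vehicle library 1 among them, it was called lower, and adjusted p over the alternatives ran from 0.0124 to 0.284. Adamtsl3 had 2.45, 3.44 and 0.901 CPM with luteolin, against 5.9, 4.86 and 1.19 CPM with vehicle, and overlapped, as did Adamtsl1, whose log2 fold change of -0.07 turned positive without luteolin library 3 (0.18), without vehicle library 2 (0.36) and with the keratocyte covariate (0.34).

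Of 8 tested proteoglycan and fibrillar substrates of these enzymes 6 were lower, or 4 without luteolin library 1 or 3 or vehicle library 1. Of all tested genes 30.4% were lower. Fibrillin 1 (Fbn1) had 9.28, 12.1 and 7.33 CPM with luteolin, against 67.2, 80.3 and 53.1 CPM with vehicle (-2.80, SE 0.21, edgeR adjusted p = 9.77e-05), and type III collagen (Col3a1), a fibrillar collagen of healing stroma, had 68.6, 151 and 78.4 CPM with luteolin, against 1535, 1038 and 1258 CPM with vehicle (-3.68, SE 0.33, edgeR adjusted p = 0.00015). Versican (Vcan), the substrate of Adamts1, Adamts5 and Adamts9, had a log2 fold change of -3.82. Of the type I collagen chains Col1a2 passed at -1.04 with overlapping groups, and Col1a1 (-0.88) did not pass. Among inhibitors and clearance receptors outside the TIMP family 6 of 7 tested were lower. Tfpi2, a matrix-bound serine protease inhibitor, had 0.193, 0.13 and 0.193 CPM with luteolin, against 1.87, 0.878 and 1.13 CPM with vehicle. Its log2 fold change of -2.85 (edgeR adjusted p = 0.00183) rests on 8 luteolin counts and 66 vehicle counts. Thrombospondin 2 (Thbs2), through which cells take up Mmp2, had 56.3, 71.4 and 26.3 CPM with luteolin, against 241, 366 and 154 CPM with vehicle (-2.30, SE 0.42, edgeR adjusted p = 0.00285). Reck, a membrane-anchored inhibitor of MMPs, was lower (-1.30), and A2m, which traps proteases of all classes, overlapped and did not pass (1.02).

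Markers of several cell types known to make these enzymes moved with the members. Over all tested genes 30.4% were lower and 28.5% were higher, and each count below is to be read beside those shares. Of the macrophage and dendritic cell markers 9 of 12 tested were lower and 1, Itgam, was higher (0.54). Their summed levels were 143 to 161 TPM in luteolin libraries and 326 to 522 TPM in vehicle libraries. Itgam alone made 61.8, 72.9 and 71.2 TPM of these sums with luteolin and 42.65, 45.7 and 53.1 TPM with vehicle. All 4 tested neutrophil markers were lower. The list summed to 3.96 to 14.8 TPM with luteolin and 148 to 336 TPM with vehicle, mostly from S100a8 and S100a9. S100a8, Ly6g and Retnlg were at 0 in all luteolin libraries. Of these, Ly6g (1, 1 and 1 vehicle counts) and Retnlg (5, 5 and 10) were not tested. Elane and Mpo had no value here. All 5 tested myofibroblast markers were lower (28.8 to 43.9 TPM with luteolin, 179 to 227 TPM with vehicle), and so were 9 of 10 vessel markers (15.9 to 19.3 TPM with luteolin, 76.8 to 124 TPM with vehicle) and both tested lymphocyte markers (0.68 to 1.24 TPM with luteolin, 2.71 to 5.25 TPM with vehicle). Of 9 keratocyte markers 3 were lower and 6 did not pass, with ranges that overlapped (1084 to 2329 TPM with luteolin, 1418 to 5104 TPM with vehicle). The count and the median log2 fold change of -0.66 rested on single libraries: 1 marker was lower without luteolin library 1, 2 without luteolin library 2 or 3 or vehicle library 1, 2 (and 1 higher, median -0.13) without vehicle library 2, and 4 (median -1.01) without vehicle library 3. Of 10 corneal epithelium markers 9 were higher, by 0.40 to 0.87 on the log2 scale, and 1, Krt14, was lower (-3.64). Their summed levels, mostly of Krt12, Aldh3a1 and Krt5, were 69553 to 71916 TPM with luteolin and 47427 to 52558 TPM with vehicle. These markers were abundant in every library of this tissue. Of the conjunctival markers 3 of 4 tested were lower (1910 to 2879 TPM with luteolin, 4373 to 4540 TPM with vehicle), and 1 of 4 corneal endothelial markers was lower (38.1 to 101 TPM with luteolin, 51.6 to 96.7 TPM with vehicle), or 2 without vehicle library 3 and 0 without luteolin library 2 or 3 or vehicle library 1 or 2. The 8 tested skeletal muscle markers and the 3 tested melanocyte and iris markers did not pass, with ranges that overlapped (55.2 to 143 TPM with luteolin and 50.7 to 253 TPM with vehicle for muscle, 5.85 to 12.2 TPM with luteolin and 4.53 to 33.9 TPM with vehicle for melanocytes and iris). Without vehicle library 3, however, 4 muscle and 4 melanocyte and iris markers were lower, 1 muscle marker was lower without luteolin library 3 and 1 melanocyte and iris marker without luteolin library 2, and the muscle median ran from -4.89 to -0.68 with single libraries left out. The part of these cell types in the levels of the members was not tested. In a fit that held the keratocyte level as a covariate, 33 members were lower and 6 higher. That level overlapped between the groups and covers no other cell type, so the fit is no test of that part.

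The libraries were alike in depth, at 16084855 to 16469699 estimated counts each. Correlation of log2 CPM was 0.970 to 0.991 within groups and 0.901 to 0.919 between them, and no libraries of a group agreed within sampling noise (chi-square of at least 6.59 per degree of freedom). Within the vehicle group library 2 had the highest and library 3 the lowest keratocyte level (mean log2 CPM of the markers 8.53 and 6.88, with 7.49 in library 1). With luteolin the same levels were 7.43, 7.55 and 6.47 in libraries 1 to 3. Members differed in their order: Mmp2, Mmp3 and Adamts2 were highest in library 2 and lowest in library 3 of both groups. Mmp13, Mmp10, Timp1 and Adamts1, among others, were highest in vehicle library 3. A link between the keratocyte level and single members was not tested. The labels give no batch or date.

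The 23 members that were not tested had few reads, between 0 and 21 counts in any library. Beside those named above they were Mmp20, Mmp24, Adam1b, Adam3, Adam5, Adam6a, Adam6b, Adam18, Adam20, Adam21, Adam32, Adamts13, Adamts16, Adamts19, Adamts20 and Adamtsl2. Most of these ADAMs are known from testis. In 5 untested members, Mmp25, Mmp17, Mmp1a, Mmp1b and Adamts8, luteolin libraries were all below vehicle libraries in CPM. In 4, Mmp7, Adam3, Adam1b and Adamts13, they were all above. Of the 3956 genes under the filter 14.1% were below and 6.72% above in this way. In Mmp7, Adam3 and Adam1b the lowest luteolin library and the highest vehicle library held the same count (1, 1 and 4). Only the scaling by library size set those 3 apart. With no filter on low counts the 5 members with luteolin below were lower in edgeR at an adjusted p under 0.05.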

How the data were processed

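Mouse corneas were flash frozen, RNA was extracted with Trizol, and libraries were made with an Illumina TruSeq kit, per the labels' protocols. Bowtie2 2.2.5, RSEM 1.2.12 and build mm9 are listed in the submitters' processing notes. How strand was used in counting is not given in the sources at hand, so overlapping and antisense genes may share reads. The estimated counts deposited by the authors were not whole (by over 0.001) in 10.3% to 10.8% of values. TPM, which corrects for gene length and sets a common total, and FPKM, which corrects for length and depth, were deposited by the authors for every library.

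Counts were rounded to whole numbers, and edgeR 4.0.16 was run under R 4.3.3 (quasi-likelihood, TMM scaling, filterByExpr with minimum count 10 and minimum total 15, Benjamini-Hochberg adjustment over 13838 genes, SE from the F value, common biological coefficient of variation 13.8%). CPM used TMM-scaled library sizes. A bound for a group with 0 counts used 3 counts over the group (0.0646 CPM with luteolin). Alternatives used DESeq2 1.42.0, limma 3.58.1 (log2 of FPKM plus 1 or 0.1), other scalings and filters, a keratocyte covariate, a replicate block and each library left out. The scripts were tested on simulated data. Members and lists were chosen with earlier results of these data known. Values per library were given for all Timp genes, members averaging at least 20 CPM and the 3 tested members with the smallest p in each role. In other lists, cell type markers aside, they were given for the 2 genes with the smallest p. The promoter table held 48 of the 73 members. The 6 columns of normalized read counts and the 8 of group averages were not used.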

Additional observations from a re-analysis of the deposited data

How the results depend on the processing

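Over the 16 alternatives, 30 to 37 members were lower (32 as reported) and 5 or 6 were higher (6 as reported), and with single libraries left out 31 to 35 were lower and 5 or 6 higher. These counts are not of like sets. The members tested ranged from 46 (1 CPM in 3 libraries) to 73 over the alternatives, and from 51 to 54 with single libraries left out, against 50 as reported. Of 796 single-member comparisons 757 kept their direction and their side of the threshold, 21 lost the call, 15 gained it and 3 changed sign. Those 3 were of Adamtsl1, which did not pass: its log2 fold change of -0.07 became 0.34 with the keratocyte covariate, and ran from -0.36 to 0.36 with single libraries left out, positive without luteolin library 3 or vehicle library 2. The cause of these changes was not tested. With no filter 37 were lower and 6 higher, and with DESeq2 36 and 6, of 73 tested in each. Among all genes called, 51.6% were lower, against 63.6% with library sizes only, 61.9% with upper quartile factors and 65.1% or 65.3% in FPKM. Same-numbered libraries did not deviate together (correlations of -0.15, 0.027 and 0.012), so their numbers do not pair them; with a replicate block 33 members were lower and 6 higher, and Adamtsl4 gained a call. Without its most abundant member, the mean total was 401 TPM for vehicle MMPs, 29.5 with luteolin and 169.6 with vehicle for TIMPs, 155 with luteolin and 181 with vehicle for ADAMs, and 33.8 for vehicle ADAMTS genes, since that member is missing by construction. Without Mmp3 in the MMP total, a choice made after seeing the data, the mean TIMP to MMP ratio was 0.438 with luteolin and 0.699 with vehicle, against 0.384 with luteolin and 0.248 with vehicle as reported. TMM-scaled TPM, chosen after seeing the data, gave ADAM totals of 234 with luteolin and 215 with vehicle. Depth limits the 23 untested members, and 3 libraries a group limit the rest.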
